A study of Bos taurus with 64 samples.

Results

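GADD45A and CDKN1A were measured in the muscles of 32 Normand cows. The members were chosen by name: probes that were no control features and that carried the name GADD45A or CDKN1A in the array files. They are 2 of 5449 transcript names, with 1 probe each among 13285 probes. Both genes were picked with their difference between stressed and limited stress cows already known, so that difference is described below and not tested.

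Gene expression had been measured with single-colour Agilent arrays in the longissimus thoracis (LT) and the semitendinosus (ST) of each cow, 64 arrays in all. In each muscle, 16 cows were stressed before slaughter (the labels say moderated stress) and 16 were handled with limited stress. The stressed cows travelled alone in a lorry and spent 30 min in a labyrinth on a farm they did not know. In each stress group, 8 cows were fed the control diet (lipid-rich, from linseed and rapeseed) and 8 the EP diet, the same ration with vitamin E and polyphenol-rich plant extracts (labelled Lipid VitE PERP). The limited stress cows were also transported, but beside a companion, and were handled calmly. The cows were on average 4.5 years old at slaughter after a mean finishing period of 101 d, and their muscles were excised within 15 min after slaughter. As a model of stress, isolation, the unknown place and walking came together in the stressed cows and cannot be told apart.

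GADD45A (growth arrest and DNA damage inducible alpha) is a small nuclear protein that binds PCNA, CDK1 and the p21 protein and activates the kinase MAP3K4 upstream of p38 and JNK. CDKN1A encodes p21, an inhibitor of cyclin-dependent kinases that halts the cell cycle. In skeletal muscle, whose fibres no longer divide, both transcripts are known to rise with denervation, disuse, fasting and glucocorticoids. GADD45A is also known as a target of ATF4, the transcription factor of the integrated stress response.

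The level of each gene rests on a probe of 60 bases near the 3′ end of its transcript, of which the last 30 bases are given here because they show what was hybridised. The GADD45A probe (NM_001034247, from transcript position 1022) lies at chr3:83342718-83342777 on the minus strand of Btau_3.1, the build of the array files. The CDKN1A probe (NM_001098958, from position 2283) lies at chr23:10914759-10914818 on the plus strand. Capitals mark AATAAA, the polyadenylation signal motif, which was searched in the printed strand only. A custom set of 5 unnamed probes on the array, Target330, has 1 probe that shares 50 bases with the CDKN1A probe, while its other 4 probes share none.
GADD45A: agtttgggtaattttggtttttatgccctc
CDKN1A: cagcaggtgctcAATAAAtattcctgatga
Target330, shared probe: tcAATAAAtattcctgatgactttacttgt

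Levels are given as log2 of the probe's signal over the 75th percentile of its array, so 0 is the 75th percentile and 1 unit is a doubling. Both probes were well above background on all 64 arrays, and none of their 128 values was set aside as an outlier spot. The arrays had 71.4 to 80.9% of their spots well above background. No slide or scan day held both muscles: 4 slides carried LT arrays only and 5 carried ST arrays only. The 32 marker genes of fibre types and other cell types included all 7 slow and all 6 fast fibre genes listed with a probe, which passed the filter in both muscles. PAX7 of satellite cells, ALAS2 of red cells, LEP of fat cells and PDGFRA of fibroblasts did not, nor did the haemoglobin gene HBB in the ST. With stress, 0 of 28 marker genes tested for the LT and 0 of 27 for the ST were called (limma, lowest adjusted p = 0.145 and 0.232). Of these markers, 2 and 3 had an unadjusted p under 0.05, beside 16% and 17.4% of all tested probes. Among all transcripts, 2.2% were called higher and 1.53% lower for the LT, and 1.48% and 2.12% for the ST. With calls this rare, 0 called markers do not show that the cells present were unchanged. The median summed signal of the fast fibre markers was 390 times the 75th percentile in limited stress and 370 in stressed cows for the LT, and 437 and 423 for the ST, over arrays with a value for all 6. That of the slow fibre markers was 283.9 and 303.7 for the LT, and 235.6 and 267.2 for the ST, over arrays with a value for all 7. In muscle as a whole, a change in the cells present and a change in RNA per cell cannot be told apart.

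A single stressed cow on the control diet, cow321, stood apart from all other cows in CDKN1A. Its CDKN1A level was 4.47 in the LT and 4.45 in the ST, against medians of -0.27 and -0.15 over the 16 stressed cows. The next highest stressed cow was at 0.10 in the LT (cow258) and 0.83 in the ST (cow297). Compared with the median of the other 7 cows of its group, CDKN1A of cow321 was 27.2-fold higher in the LT and 23.5-fold higher in the ST. It was also the highest of 32 cows for GADD45A, at 1.98 in the LT and 2.68 in the ST. Its arrays had 76.7% and 76.4% of spots well above background, within the range of the others, and lay on different slides and scan days. The main fits and relations of both genes below are therefore given with and without this cow where it moves them. For the other genes some values are given with all cows only.

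GADD45A was higher in stressed cows in both muscles. In the LT, the 16 limited stress cows lay between -1.20 (cow308) and 0.50 (cow280) with a median of -0.52, and the 16 stressed cows between -0.59 (cow324) and 1.98 (cow321) with a median of 0.72. In the ST, limited stress cows lay between -0.77 (cow308) and 0.74 (cow314) with a median of -0.22, and stressed cows between 0.32 (cow303) and 2.68 (cow321) with a median of 1.003. The groups overlapped at their edges: 11 of 16 stressed cows in the LT and 12 in the ST lay above the highest limited stress cow. All 16 stressed cows in the ST and 15 of 16 in the LT were above the limited stress median. Over all transcripts tested, 2.2% were called higher with stress in the LT and 1.48% in the ST, a background from which nothing is read here since the gene was chosen for this contrast.

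The fitted difference of GADD45A between stressed and limited stress cows was 1.16 ± 0.17 in log2 units for the LT (SE, 16 cows per group), or 2.24-fold with a 95% interval of 1.77 to 2.83. In the ST it was 1.20 ± 0.16, or 2.29-fold with an interval of 1.83 to 2.87. Without cow321 the differences were 1.08 and 1.09. Within slides, stressed cows were higher on 4 of 4 LT slides, by 1.11 to 1.32, and on 5 of 5 ST slides, by 0.41 to 1.41. The stress groups were unevenly spread over the slides. The 0.41 came from an ST slide with 1 stressed and 3 limited stress cows, and another ST slide held 6 stressed cows and 1 limited stress cow.

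**Figure D1:**
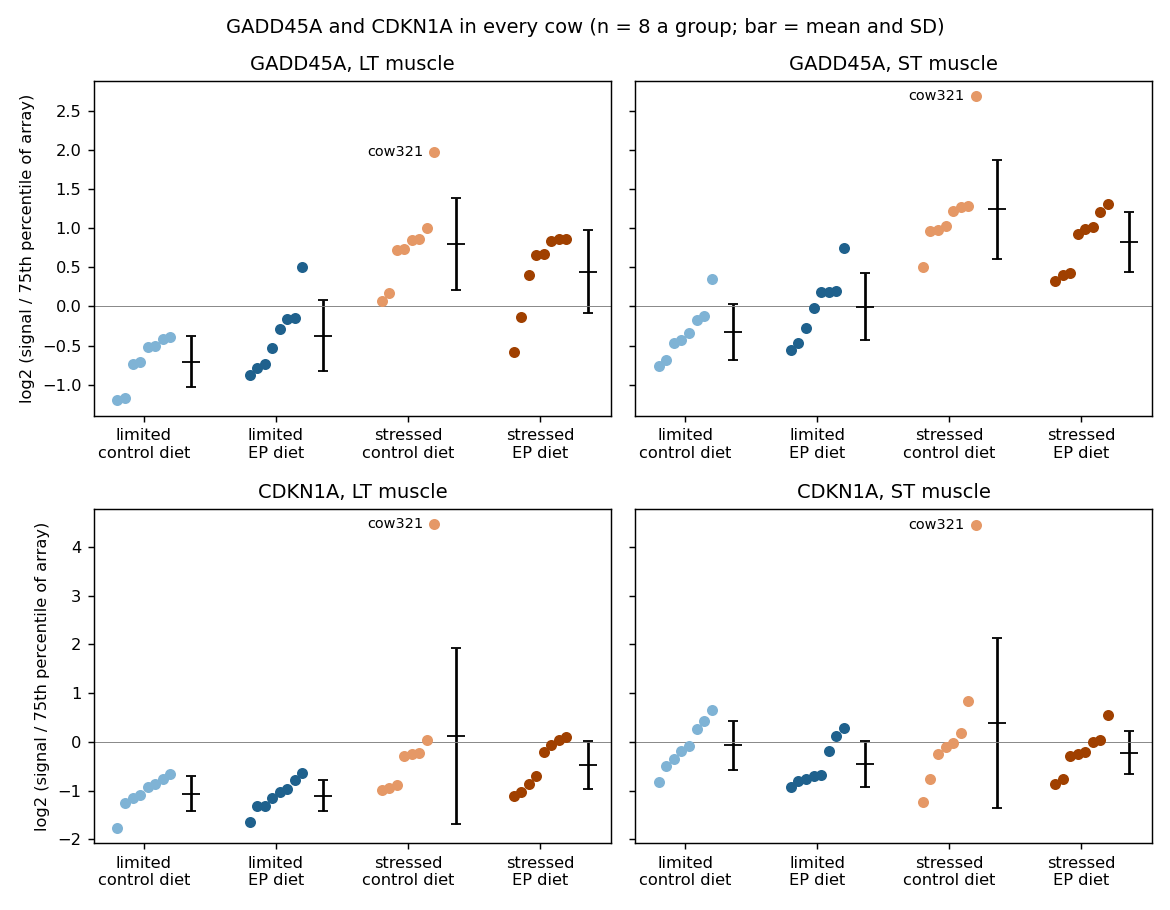
Level of GADD45A (top) and CDKN1A (bottom) in the LT (left) and the ST (right), as log2 of signal over the array's 75th percentile, with 1 point per cow in 4 groups of 8 cows and a bar for the mean and SD. On the control diet, GADD45A of all 8 stressed cows lay above all 8 limited stress cows in both muscles, and cow321 was far above all others in CDKN1A.

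In the LT most stressed cows had more CDKN1A than limited stress cows, and in the ST the groups overlapped widely. In the LT the limited stress cows lay in a narrow range, from -1.77 (cow255) to -0.65 (cow331) with a median of -1.06. The stressed cows ran from -1.12 (cow299) to 4.47 (cow321), and 9 of 16 lay above the highest limited stress cow. In the ST, limited stress cows lay between -0.92 (cow304) and 0.66 (cow255) with a median of -0.27, and stressed cows between -1.23 (cow265) and 4.45 (cow321) with a median of -0.15. Those groups overlapped over nearly their whole range, and 2 of 16 stressed cows exceeded the highest limited stress cow. A stressed cow was the higher of the pair in 84.0% of all pairs of a stressed and a limited stress cow in the LT, and in 55.9% in the ST.

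The fitted stress difference of CDKN1A was 0.90 ± 0.33 in the LT, or 1.87-fold with a 95% interval of 1.18 to 2.97. In the ST it was 0.35 ± 0.33, or 1.27-fold with an interval of 0.80 to 2.02, which includes no change. Without cow321 the difference was 0.59 ± 0.14 in the LT and 0.06 ± 0.18 in the ST. Both values and their errors shrank, and most of the ST value rested on this cow. Within slides, stressed cows were higher on 4 of 4 LT slides, by 0.30 to 1.73. They were higher on 4 of 5 ST slides, on 1 of these by 0.01 only, with differences from -0.23 to 0.69. The 1.73 and the 0.69 came from the slides that held cow321. On that LT slide the other stressed cows lay between -0.95 and 0.04, and the limited stress cows between -1.64 and -0.65. On that ST slide the other stressed cows lay between -1.23 and 0.18, and the 1 limited stress cow was at -0.18. Slide differences without cow321 were not computed.

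With cow321 included, the spread between cows of a group was wide for CDKN1A. Its SD within groups was 0.96 in the LT and 0.97 in the ST, wider than for 97.3% and 97.0% of the tested probes. Without cow321 it was 0.40 and 0.52. For GADD45A the SD was 0.48 and 0.46, against a median over probes of 0.30 and 0.28.

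The 5 probes of Target330 tracked the CDKN1A probe cow by cow. Their correlation with it across 32 cows ran from 0.989 to 0.997 in the LT and from 0.993 to 0.996 in the ST. Without cow321 it ran from 0.946 to 0.986 and from 0.973 to 0.985. These are readings of the same arrays, and they are given as a description. On all 5 of them cow321 was high, between 2.17 and 4.24 in the LT and between 2.05 and 4.29 in the ST. Their stress differences lay between 0.94 and 1.02 in the LT and between 0.39 and 0.45 in the ST. Without cow321 they lay between 0.60 and 0.68 and between 0.07 and 0.14.

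No difference between the diets passed the test for either gene. Cows on the EP diet differed from those on the control diet in GADD45A by -0.01 in the LT (limma, adjusted p = 0.999) and by -0.04 in the ST (adjusted p = 0.977), with 95% intervals from -0.35 to 0.33 and from -0.37 to 0.28. The sign of these small differences turned to plus without cow321 and when the control features set the scale. For CDKN1A the difference was -0.32 in the LT (adjusted p = 0.993) and -0.50 in the ST (adjusted p = 0.949), and without cow321 it was -0.01 and -0.20. No transcript was called for the diet in either muscle (0%). At an unadjusted p under 0.05, 407 of 10441 probes of the LT and 531 of 10305 of the ST passed.

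The groups of GADD45A lay farther apart on the control diet than on the EP diet in both muscles, a difference that did not pass the correction over all probes. On the control diet the limited stress cows had a mean of -0.70 ± 0.32 (SD, n = 8) in the LT and -0.33 ± 0.35 in the ST, and the stressed cows 0.80 ± 0.58 and 1.24 ± 0.64. On the EP diet the means were -0.38 ± 0.45 and -0.00 ± 0.42 in limited stress cows and 0.45 ± 0.53 and 0.83 ± 0.39 in stressed cows. The EP groups thus lay inside the control groups, with a higher limited stress mean and a lower stressed mean. All 8 stressed cows on the control diet were above all 8 limited stress cows in both muscles. On the EP diet 5 of 8 stressed cows were above the highest limited stress cow in each muscle.

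As fitted values, the stress difference of GADD45A was 1.50 ± 0.23 on the control diet and 0.82 ± 0.23 on the EP diet in the LT, and 1.57 ± 0.22 and 0.83 ± 0.22 in the ST. The difference between the diets was -0.68 ± 0.33 in the LT (limma, unadjusted p = 0.0483, adjusted p = 0.9999) and -0.74 ± 0.32 in the ST (unadjusted p = 0.0268, adjusted p = 0.969). No transcript was called for it in either muscle (0%). Before adjustment, 276 of 10441 probes of the LT (2.64%) and 491 of 10305 of the ST (4.76%) had a p under 0.05, no more than chance gives. Without cow321 it was -0.51 (unadjusted p = 0.0969) and -0.53 (unadjusted p = 0.0467). Since both muscles came from the same cows, the values of the LT and the ST are not independent.

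For CDKN1A the stress difference was 1.18 on the control diet and 0.63 on the EP diet in the LT, and 0.46 and 0.23 in the ST. The difference between the diets was -0.55 ± 0.65 in the LT (limma, adjusted p = 0.9999) and -0.23 ± 0.66 in the ST (adjusted p = 0.989). Without cow321, which was on the control diet, it turned to 0.07 and 0.35. The stress difference on the control diet was then 0.55 in the LT and -0.12 in the ST, where its direction was reversed.

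**Figure D2:**
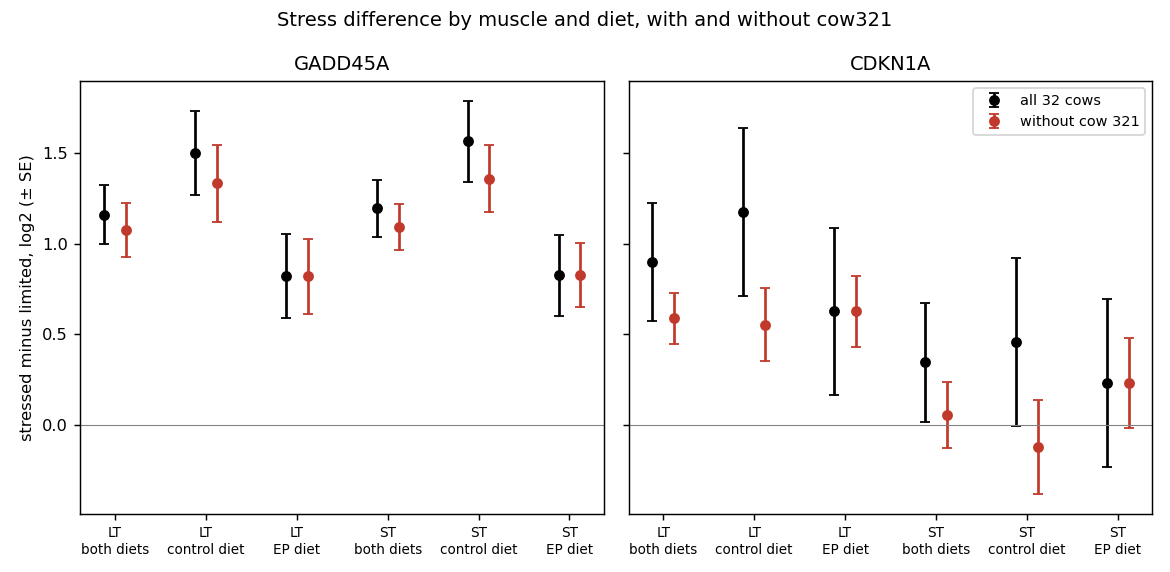
Stress difference (stressed minus limited stress cows, log2 scale, with SE) of GADD45A and CDKN1A over both diets and on each diet, in the LT and the ST, with all 32 cows in black and without cow321 in red. GADD45A kept a difference near 0.82 on the EP diet and above 1.3 on the control diet, and CDKN1A on the control diet fell from 1.18 to 0.55 in the LT and from 0.46 to -0.12 in the ST when cow321 was left out.

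Over the 8 groups, the means of GADD45A lay in small steps from the LT of limited stress cows on the control diet to the ST of stressed cows on that diet. The order of the means was LT limited control, LT limited EP, ST limited control, ST limited EP, LT stressed EP, LT stressed control, ST stressed EP and ST stressed control. All 4 stressed groups were thus above all 4 limited stress groups. The 7 steps between neighbours were 0.03 to 0.45, and each was smaller than the larger SD of its pair. For CDKN1A the order was LT limited EP, LT limited control, LT stressed EP, ST limited EP, ST stressed EP, ST limited control, LT stressed control and ST stressed control. Of its 7 steps, 6 were smaller than the larger SD of the pair, and the step of 0.58 between LT limited control and LT stressed EP was not. Without cow321 the mean of LT stressed control was -0.51 and moved to the third place, that of ST stressed control was -0.20 and moved to the seventh, and ST limited control at -0.07 was the highest.

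GADD45A was lower in the LT than in the ST in most cows. In limited stress cows 12 of 16 had the lower level in the LT, with a mean difference (LT minus ST) of -0.38 (SD 0.49) and a range from -1.52 (cow314) to 0.52 (cow280). In stressed cows 14 of 16 had the lower level in the LT, with a mean of -0.41 (SD 0.47). In the fit of all arrays these differences had limma's adjusted p = 0.0658 and adjusted p = 0.0451, and with the cow as a replicate block adjusted p = 0.0101 and adjusted p = 0.0052. With the slide as a random block they were -0.40 and -0.39, with limma's adjusted p = 0.119 and adjusted p = 0.138, and the calls were lost. The muscle and the slides cannot be told apart.

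CDKN1A was lower in the LT than in the ST in all 16 limited stress cows, with differences from -2.43 (cow255) to -0.02 (cow280). The mean difference was -0.82 (SD 0.61, limma, adjusted p = 0.0470, and with the slide as a random block adjusted p = 0.0978). In stressed cows, 11 of 16 had the lower level in the LT and 5 the higher, with a mean of -0.26 (SD 0.41, limma, adjusted p = 0.577). Without cow321 the mean was -0.28, and it passed the threshold only with the cow as a replicate block (limma, adjusted p = 0.0771). The SDs are of differences within cows, while the p values given with all cows came from fits without a block for the cow. With all cows, the cow as a replicate block changed neither call. Among all transcripts 22.6% were called lower in the LT in limited stress cows and 20.5% in stressed cows, so that a call between the muscles was common on these arrays.

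The stress difference did not pass the test of a difference between the muscles for either gene. It was -0.03 ± 0.23 for GADD45A (LT minus ST, limma adjusted p = 0.999, 95% interval -0.50 to 0.43), and its sign turned with the slide or the scan day as a block. For CDKN1A it was 0.56 ± 0.47 (limma, adjusted p = 0.999, interval -0.39 to 1.50). Without cow321 it was 0.54 ± 0.23 (limma, unadjusted p = 0.0247, adjusted p = 0.9998). These fits had no block for the cow, so their SE and intervals do not use the pairing of the muscles. Within cows, CDKN1A differed (LT minus ST) by a mean of -0.82 (SD 0.61) in limited stress cows and -0.26 (SD 0.41) in stressed cows. No transcript was called (0%), and 278 of 10254 probes had an unadjusted p under 0.05.

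**Figure D3:**
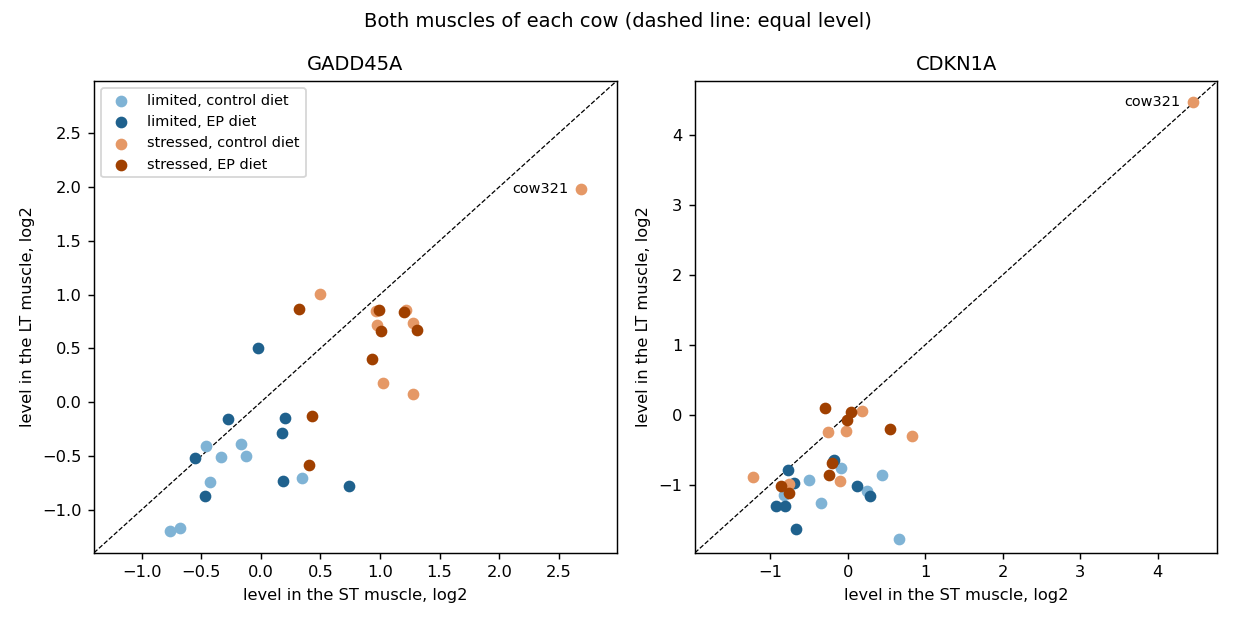
Level of GADD45A (left) and CDKN1A (right) in the LT against the ST of the same cow, both as log2 of signal over the array's 75th percentile, coloured by stress and diet; the dashed line marks equal levels. Most cows lay below the line (26 of 32 for GADD45A), and cow321 was high in both muscles.

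The cow by cow relations were computed within each stress group of 16 cows, 8 relations in all, with permutation tests adjusted over the 8. CDKN1A of the LT and the ST went together in stressed cows (Pearson's r = 0.95, adjusted p = 0.0024; Spearman's rho = 0.68, adjusted p = 0.0185). The relation was still found without cow321 (n = 15, r = 0.64, adjusted p = 0.0363 over 4 relations; rho = 0.61, adjusted p = 0.0350). Without the 2 cows farthest from the median r was 0.60, and after removal of slide and diet means 0.86. In limited stress cows r was -0.02 (adjusted p = 0.931). The same cows were thus high or low in both muscles: 3 of the 5 highest stressed cows (cow268, cow321 and cow330) and 4 of the 5 lowest (cow265, cow299, cow303 and cow305) were shared.

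GADD45A of the LT and the ST had r = 0.65 in stressed cows (permutation test, adjusted p = 0.0285) but rho = 0.16 (adjusted p = 0.624). The relation rested on cow321, without which r was 0.31. In limited stress cows r was 0.31 (adjusted p = 0.330; rho = 0.42, adjusted p = 0.292).

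GADD45A and CDKN1A went together in the ST of stressed cows (r = 0.84, permutation test, adjusted p = 0.0125; rho = 0.71, adjusted p = 0.0185). Without cow321 r was 0.45 (adjusted p = 0.188) and rho was 0.65 (adjusted p = 0.0350), and without the 2 farthest cows r was 0.35. In the LT of stressed cows r was 0.69 (adjusted p = 0.0198) and rho 0.25 (adjusted p = 0.507), and r fell to 0.34 without cow321. In limited stress cows r was 0.25 in the LT (adjusted p = 0.409) and -0.36 in the ST (adjusted p = 0.283).

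The transcripts whose levels went most closely with each gene were ranked by the mean of the LT and ST correlations across 32 cows, after removal of the group means, among 1919 named transcripts. For GADD45A they were BTG1 (0.66), an antiproliferative gene, LIMD2 (0.61), the selenium carrier SEPP1 (0.56), the Golgi transport gene GOSR1 (0.54) and the metallothionein MT2A (0.53). For CDKN1A 4 of the first 5 were topoisomerase TOP1 (0.85), ASL of the urea cycle (0.78), the forkhead gene FOXK2 (0.75) and the heat shock factor HSF2 (0.71). The correlation of GADD45A with CDKN1A was 0.57.

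These rankings depended on cow321. Over the other 31 cows SEPP1 (0.45) and BTG1 (0.44) were still among the first 5 for GADD45A, behind HMGB2 (0.49), and MT2A fell to rank 93. For CDKN1A none of these 4 was kept: TOP1 fell to rank 101 and ASL to rank 738. The first was then RPS27L (0.45), a ribosomal protein gene, which had ranked 920 with cow321. The correlation of GADD45A with CDKN1A was then 0.22. They are descriptions without a test.

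In cow321 CDKN1A was the transcript farthest above the other 7 cows of its group in both muscles, of 1921 named ones. Since cow321 was set apart for its CDKN1A level, this rank is a description that the choice of the cow favours. The other genes far above were also chosen after their values were seen. Lactoferrin (LTF) was higher by 3.53 (LT) and 3.17 (ST) log2 units. MT2A was higher by 2.94 and 3.16, and the thrombin receptor family gene F2RL2 by 2.90 and 2.76. BTG1 was higher by 2.16 and 2.04, while GADD45A ranked 36 with 1.24 and 1.66. Among the listed genes myostatin (MSTN), which limits muscle growth, was far lower, by -4.82 and -3.04, and MYOD1, a myogenic transcription factor, by -1.93 and -3.36. Of 4230 transcripts, 25 were more than 4-fold higher and 48 more than 4-fold lower in both muscles of cow321, against at most 9 and at most 6 in any of the other 31 cows.

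**Figure D4:**
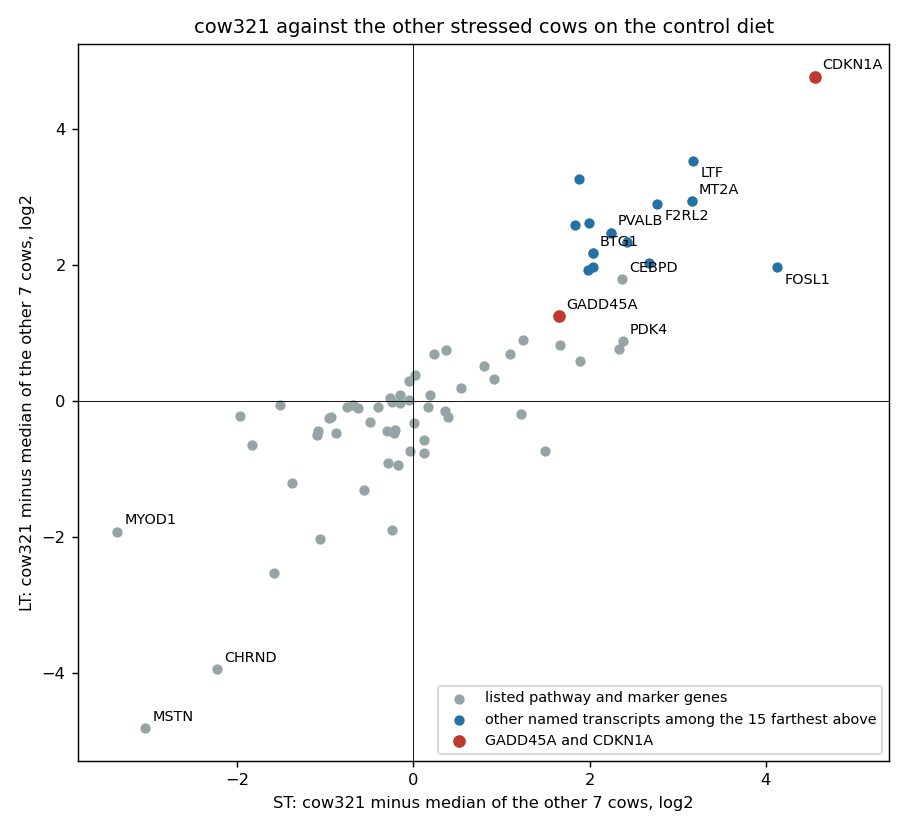
Level in cow321 minus the median of the other 7 stressed cows on the control diet, in the ST (horizontal axis) and the LT (vertical axis), log2 scale, for the listed genes (grey), the named transcripts farthest above (blue) and both members (red). CDKN1A lay at 4.56 and 4.77, GADD45A at 1.66 and 1.24, and MSTN at -3.04 and -4.82.

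Of the other genes of these pathways, 32 of 167 listed ones had a probe under their name, and MDM2, GADD45G, CDKN1B, CDKN1C, PCNA, ATF4, FKBP5, FBXO32 and TRIM63 had none. With stress, 5 of 32 tested genes rose and 2 fell in the LT, and 4 of 31 rose and 2 fell in the ST (limma, adjusted p below 0.1), of which 4 rose and 1 fell in both. The median difference of the listed genes was 0.11 in the LT and 0.09 in the ST, beside -0.05 and -0.06 over all transcripts tested. Over all transcripts, 2.2% were called higher and 1.53% lower in the LT, and 1.48% and 2.12% in the ST. The lists were drawn up with earlier results of these data known.

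Of the genes of the DNA damage response, CCNG1, BAX and FAS could be tested, and none of these 3 was called in either muscle (limma), with 1 at an unadjusted p under 0.05 in the LT and 0 in the ST. CCNG1 is a cyclin induced by DNA damage, and BAX and FAS act in cell death. CCNG1, BAX and FAS were at -0.02, -0.22 and -0.24 in the LT and at -0.02, -0.07 and -0.04 in the ST. Without cow321 CCNG1 was at 0.01 in the LT.

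Of the CDK inhibitors and the GADD45 family, GADD45B and BTG1 could be tested beside the members. GADD45B, a paralogue of GADD45A, was at 0.45 ± 0.15 in the LT (limma, adjusted p = 0.100, just above the threshold) and at 0.27 ± 0.23 in the ST (adjusted p = 0.554). It was called in the LT with the scan day as a block (adjusted p = 0.0868) and among probes well above background on all arrays (adjusted p = 0.0915). Without cow321 it was not called, at 0.40 in the LT (limma, adjusted p = 0.165) and at 0.19 in the ST (adjusted p = 0.679). In the LT 15 of 16 stressed cows were above the limited stress median of GADD45B, and in the ST 11 of 16. BTG1 rose by 0.72 ± 0.17 in the LT (adjusted p = 0.0136), and was at 0.38 ± 0.16 in the ST (adjusted p = 0.216). The rise in the LT was 0.57 without cow321, and its call was lost with the control features as the scale (0.54, adjusted p = 0.409).

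In the fit of each muscle none of the cyclins, CDKs and replication genes was called, 0 of 5 tested for the LT and 0 of 4 for the ST (limma), and 2 in each muscle had an unadjusted p under 0.05. CDK4, a kinase of the G1 phase that p21 binds, was at -0.16 in the LT (adjusted p = 0.110) and -0.14 in the ST. It was called lower in the LT with the cow as a replicate block (limma, adjusted p = 0.0522), in the fit of all arrays, and with the slide or scan day as a block (adjusted p up to 0.0744). CDK2, the main kinase inhibited by p21, was at -0.02 and -0.06. MCM2, of the replicative helicase, was at 0.24 and 0.31, and was called higher in the ST with the cow as a replicate block (limma, adjusted p = 0.0655), in the fit of all arrays, without scaling and after normexp and quantile normalization. MAPK14, the p38 alpha kinase downstream of GADD45 proteins, was at -0.27 ± 0.09 in the LT (adjusted p = 0.111) with 0 of 16 stressed cows above the limited stress median. It passed the test without cow321, falling by 0.20 (adjusted p = 0.0484), with the cow as a replicate block (adjusted p = 0.0674) and with the scan day as a block (adjusted p = 0.0984), and was at -0.16 in the ST (adjusted p = 0.421).

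In the integrated stress response ATF3, a transcription factor downstream of ATF4, rose by 1.45 ± 0.27 in the LT and by 1.95 ± 0.41 in the ST (limma, adjusted p = 0.000843 and 0.00498). All 16 stressed cows of the LT and 14 of the ST were above the limited stress median. The kinase EIF2AK3 and the chaperone HSPA5, both of the unfolded protein response, were not called, at 0.14 and 0.07 in the LT and 0.04 and 0.12 in the ST.

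Of 7 glucocorticoid and FOXO targets, 3 rose in each muscle and 1 fell in the ST. Over all transcripts, 2.2% were called higher in the LT, and 1.48% higher and 2.12% lower in the ST. The list was drawn up with earlier results of these data known, so nothing is read from the count. PDK4, which inhibits the pyruvate dehydrogenase complex, rose by 3.39 ± 0.33 in the LT and by 3.36 ± 0.33 in the ST, with all 16 stressed cows above the limited stress median in both. CEBPD, a transcription factor, rose by 1.68 ± 0.22 and 1.36 ± 0.23, also in all 16. DUSP1, a phosphatase that turns off MAP kinases, rose by 0.34 ± 0.11 in the LT (limma, adjusted p = 0.0994), a call lost without cow321 (adjusted p = 0.111), without scaling or the filter, and with the control features, and by 0.38 ± 0.11 in the ST (adjusted p = 0.0496), a call lost with the control features and with the slide or scan day as a block. MSTN fell by 0.79 ± 0.24 in the ST (adjusted p = 0.0742), a call lost in the fits of all arrays, with the control features, without scaling and with the slide or scan day as a block (adjusted p = 0.183 to 0.573). Without cow321 MSTN fell by 0.59 in the ST and was still called (limma, adjusted p = 0.0248). MT2A was at 0.58 and 0.41, and without cow321 at 0.41 and 0.22, not called in either muscle.

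Of 11 genes known to respond to denervation, none rose, 2 fell in the LT and 1 in the ST, beside 1.53% and 2.12% called lower over all transcripts. This list was also drawn up with earlier results known. MUSK, a kinase of the neuromuscular junction, was called higher in the LT after normexp and quantile normalization alone (limma, adjusted p = 0.0877). MYOG, a myogenic transcription factor that rises with denervation, fell by 1.004 ± 0.10 in the LT and by 0.85 ± 0.12 in the ST (limma, adjusted p = 3.62e-08 and 1.16e-05), with 0 of 16 stressed cows above the limited stress median in both. MYOD1 fell by 0.69 ± 0.18 in the LT (adjusted p = 0.0261) and was at -0.61 ± 0.24 in the ST (adjusted p = 0.179), where it was called with the cow as a replicate block (adjusted p = 0.0776). Without cow321 MYOD1 was at -0.57 in the LT, still called, and at -0.40 in the ST, not called. The acetylcholine receptor subunits CHRNA1, CHRNB1, CHRND, CHRNE and CHRNG were between -0.42 and 0.58 over both muscles and none was called. The lowest of these values, CHRND in the LT, was -0.19 without cow321.

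**Figure D5:**
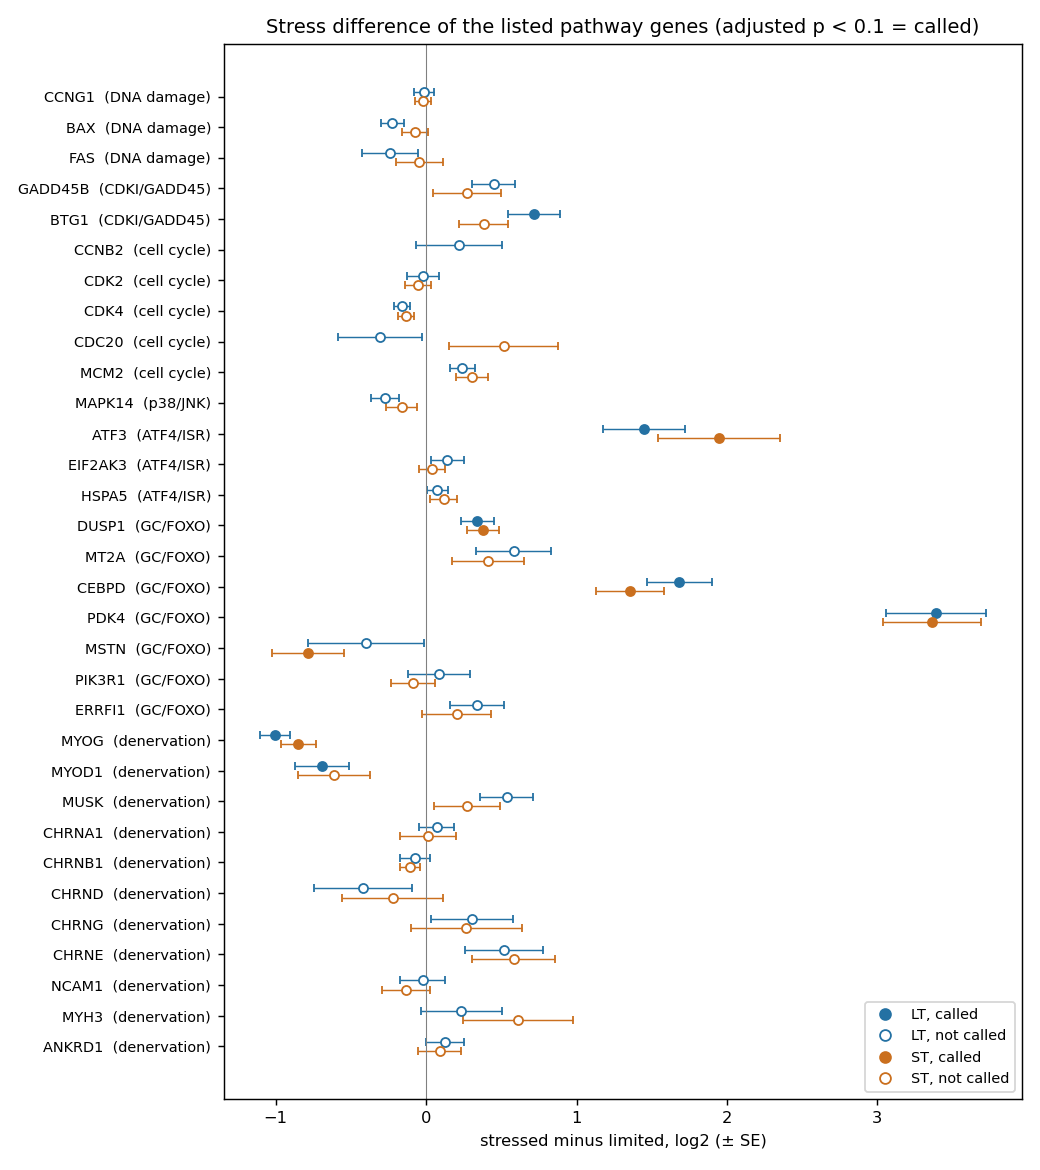
Stress difference (stressed minus limited stress cows, log2 scale, with SE) of 32 listed pathway genes in the LT (blue) and the ST (orange); filled points passed the test at an adjusted p below 0.1. PDK4, CEBPD, ATF3 and DUSP1 rose in both muscles and MYOG fell in both, and no cyclin or CDK was called in these fits of each muscle (CDK4 was called lower in the LT with the cow, slide or scan day as a block and in the fit of all arrays).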

How the data were processed

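The authors read single-colour Agilent arrays with the Feature Extraction software, and the deposited values are processed intensities per spot, background-subtracted, without scaling between arrays; the deposited series table holds the same intensities. Arrays with 536 control features and 13414 other spots were scaled here to the 75th percentile of the other spots (2470 to 4202 intensity units), because the control features of these files had a median of 3.24, near background. The study's methods scale to control probes; whether these are the same is not given in the sources used here. The number of arrays limits the precision.

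Spots set aside as outliers were dropped, spots of a probe averaged, and a probe was kept if 11 or more of the 32 arrays of a muscle had it well above background. limma 3.58.1 (statmod 1.5.0, R 4.3.3) fitted the 4 groups of stress and diet per muscle. For the muscles it fitted 8 groups over 64 arrays, in the main fit without a block for the cow. All probes entered the Benjamini-Hochberg adjustment, and a call needed an adjusted p below 0.1 in 1 direction for 80% or more of a transcript's probes. The ± values of fits are SE. Relations between cows used 100000 permutations, two-sided (numpy 2.4.6, scipy 1.17.1). The scripts were tested on simulated data.

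Groups came from the labels, whose cow number pairs the muscles of an animal. Deviations from the group means correlated between the muscles of a cow by 0.11 to 0.77. For 26 of 32 cows the LT array correlated best with the ST array of the same cow, and for the others with that of another cow. Slaughter day is not given per cow in the sources used here, so its part was not tested. The members and gene lists were chosen with earlier results of these data known. Named genes were the members, every listed gene that was called, a fixed set of pathway genes where they had a probe, and the 5 transcripts most like each member, except 2 transcripts that are not reported here and are left out of the list counts; the genes of cow321 and the ranks without it were chosen after their values were seen. Alternatives were 2 other scalings (control features and normexp with quantile), no scaling, filters, slide, scan day and cow as blocks, leaving out each cow and, added after seeing the data, leaving out cow321.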

Additional observations from a re-analysis of the deposited data

Results flagged for a closer look

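In 3 of 16 groups of 8 cows (each gene, muscle, stress and diet), the highest cow lay farther from the next than the critical share of the group's range (0.526), and it was cow321 each time. Its CDKN1A level was 4.47 in the LT, where the next cow was at 0.05, and 4.45 in the ST, where the next was at 0.83. Its GADD45A level was 2.68 in the ST, where the next cow was at 1.28. Chance marks about 1 in 20 groups, and these 3 groups hold the same cow.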

How the results depend on the processing

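The stress difference of GADD45A kept its direction under every alternative run, and ranged from 1.08 to 1.24 in the LT and from 1.09 to 1.25 in the ST when 1 cow was left out. That of CDKN1A ranged from 0.59 to 0.98 in the LT and from 0.06 to 0.46 in the ST, lowest without cow321 in both. With the control features as the scale, the median of all probes shifted to -0.23 for stress in the LT, 0.20 for diet in the LT and 0.29 for the muscles in limited stress cows, and without scaling the latter was 0.15; relative to that median GADD45A with stress in the LT was 1.21 in both.

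The difference between the muscles lost its call as follows, and the cause was not tested. For CDKN1A in limited stress cows it was -0.50 with the control features, -0.64 without scaling and -0.83 with the scan day as a block. For GADD45A in limited stress cows it was -0.052, -0.19 and -0.40, with -0.32 after normexp and quantile normalization and -0.40 with the slide as a block. For GADD45A in stressed cows it was -0.36 with the control features, -0.34 without scaling, -0.39 with the slide and -0.40 with the scan day as a block. For CDKN1A in stressed cows it gained a call at -0.28 only with cow321 left out and the cow as a replicate block together. The replicate block otherwise changed no call of the members; the listed genes that fell in the LT were 4 with it (CDK4 and MAPK14 gained a call), and in the ST MYOD1 and MCM2 gained a call and MSTN lost its call.

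The diet difference of GADD45A turned to 0.19 (LT) and 0.025 (ST) with the control features and to 0.073 and 0.058 without cow321, and its difference in stress effect between muscles turned to 0.079 with the slide and 0.047 with the scan day as a block. The difference between diets in the stress effect of CDKN1A turned to 0.073 and 0.35 without cow321. Among the relations, CDKN1A of the muscles in limited stress cows turned to 0.058 after removal of slide and diet means and to 0.29 without the 2 farthest cows; in stressed cows it was 0.86 and 0.60. Without the 2 farthest cows GADD45A of the muscles in stressed cows was 0.033, and GADD45A against CDKN1A was 0.25 (LT, stressed), 0.35 (ST, stressed) and -0.66 (ST, limited stress). Without cow321 the 3 relations with GADD45A in stressed cows lost the call of Pearson's r, at 0.31, 0.34 and 0.45, while Spearman's rho of GADD45A against CDKN1A in the ST was still called (0.65, permutation test, adjusted p = 0.0350).

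Of the listed genes, 3 rose in the LT with the control features. In the LT 4 fell with the scan day as a block. In the ST 1 fell with the control features, without scaling, with the slide or scan day as a block, with all arrays in 1 fit, and with all probes at an adjusted p below 0.05.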
